A study of Mus musculus with 6 samples.

Results

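The transcription factor p53 (Trp53) and 9 genes linked to it were followed in naive CD4+ T cells before and after activation. The genes were chosen by name, as known regulators or targets of p53. All 10 were found by NCBI gene identifier among 18446 genes of the deposited table, and all 10 were among the 10347 that averaged at least 1 FPKM in the 6 libraries and were tested. FPKM is a count of fragments divided by transcript length and by library size, so levels can be compared between genes per length.

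The cells were naive CD4+CD44loCD62Lhi T cells, taken by cell sorting from lymph nodes and spleen of C57BL/6 mice aged 6-8 weeks. The libraries labelled Zak-KO came from mice of genotype Zak-/-, which the growth protocol describes as deficient conditionally in T cells, without naming the Cre driver, and the WT libraries from wild-type mice. Cells of both were cultured with antibodies against CD3 and CD28 for 0, 6 or 48 h. The 2 genotypes and 3 times gave 6 libraries, 1 per group, and the number of mice behind each is not given. Zak is the kinase encoded by Map3k20, which activates p38 and JNK after stress at the ribosome.

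Map3k20 itself stood at 0.10, 0.10 and 1.61 FPKM at 0, 6 and 48 h in the libraries labelled Zak-KO, and at 0.17, 0.19 and 1.35 FPKM in WT. Its level therefore did not separate the labels at 48 h, and a gene-level value cannot show a deleted exon. FPKM sums lay between 496045 and 546113 per library, and the read depth is not known from these values. Of the markers of CD4+ T cells, Cd4 stood at 357, 259 and 219 FPKM at 0, 6 and 48 h in the libraries labelled Zak-KO and at 329, 224 and 218 in WT, and Cd3e was between 231 and 288 FPKM in all 6. Cd5 went the other way, at 106, 352 and 413 FPKM in the libraries labelled Zak-KO and 110, 312 and 436 in WT. The 6 markers of the list summed to 1652, 1956 and 1981 FPKM in the libraries labelled Zak-KO and to 1653, 1884 and 1928 in WT. Among markers of other cells, the 2 of CD8 T cells summed to 10.53, 10.9 and 12.8 FPKM in the libraries labelled Zak-KO and to 11.7, 10.1 and 8.88 in WT. The sum of 5 B cell markers was 6.98, 5.27 and 7.25 FPKM at 0, 6 and 48 h in the libraries labelled Zak-KO. In WT it was 3.27, 4.75 and 5.38. That of 6 myeloid markers was 7.55, 5.18 and 4.90 in the libraries labelled Zak-KO and 7.76, 6.82 and 4.43 in WT. The sums of NK, dendritic and erythroid cell markers were at most 3.01 FPKM. The part of other cells in the results was not tested. In sorted bulk cells, fewer cells of a type and less RNA per cell cannot be told apart.

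In most resting cells p53 protein is made and destroyed continuously. The ubiquitin ligase Mdm2 marks it for degradation, its relative Mdm4 holds down its activity, and DNA damage or other stress releases both brakes through kinases such as Atm and Chek2. Active p53 then binds DNA as a tetramer and induces genes for cell cycle arrest, DNA repair, apoptosis and its own feedback inhibitors, Mdm2 and the phosphatase Ppm1d among them. T cells divide very fast once activated.

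The DNA letters that p53 reads were looked for in the promoters of these genes. The genes were chosen by name as known regulators or targets of p53, so the share with a match describes that choice. The 10-base p53 consensus, which equals its own reverse complement and so was read on both strands at once, was searched from 250 bases before to 50 after each start site in RefSeq (GRCm38.p6). Of the 10 genes, 8 had a promoter in that table, and Trp53inp1 and Zmat3 had none. At least 1 exact match was present in 6 of the 8 (75%), against 7.90% of the 8400 tested genes that have a promoter there. By promoter it was 6 of 10 (60.0%) for the members, against 6.64% of the 10638 promoters of tested genes. The windows that hold the matches are printed 5′ to 3′ on the gene's strand, with the matching 10 bases in capitals.

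Cdkn1a (chr17:29090886-29090957, plus strand): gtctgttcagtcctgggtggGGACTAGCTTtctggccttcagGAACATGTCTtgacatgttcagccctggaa
Mdm2 (chr10:117710915-117710964, minus strand): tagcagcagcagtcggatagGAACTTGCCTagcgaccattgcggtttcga
Ppm1d (chr11:85311102-85311151, plus strand): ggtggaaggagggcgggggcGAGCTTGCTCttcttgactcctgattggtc
Ccng1 (chr11:40755442-40755491, minus strand): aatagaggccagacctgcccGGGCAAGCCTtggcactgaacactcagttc
Ei24 (chr9:36797335-36797364, minus strand): ccagctgccccgtgcggcccGGGCATGCCC
Trp53 (chr11:69580264-69580313, plus strand): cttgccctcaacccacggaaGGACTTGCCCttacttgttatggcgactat

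The Cdkn1a window lies before the upstream one of its RefSeq start sites, and its second match is followed without a gap by a near match. Together these 20 bases begin 51 bases upstream of that start and form the only full p53 element found in a member, counted as 2 consensus units side by side with at most 2 bases off outside their centres. Such an element was present in 0.113% of the same 10638 promoters. No exact match lay in the windows of Mdm4 and Phlda3 or at the other Cdkn1a start. A match describes letters and does not show that p53 was bound in these cells.

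Trp53 was the most abundant of the 10 genes in every library (chromosome 11, 69580348 to 69591873). It stood at 101, 114 and 168 FPKM at 0, 6 and 48 h in the libraries labelled Zak-KO, and at 106, 120.0 and 166 FPKM in WT. Both 48 h libraries were above all 4 earlier ones, and its mean level was above that of 95.3% of the filtered genes. Time was tested in 1 limma fit over all genes with label and time as terms. It has 2 libraries per time, 1 of each label. Its error therefore comes from the disagreement between the labels and not from a spread of replicates. The error of each gene is also drawn toward that of all genes, which raises its degrees of freedom from 2 to 5.42. In this fit Trp53 rose by 0.69 ± 0.08 at 48 h against 0 h on the log2(FPKM+1) scale (SE, adjusted p = 0.000711), and its 6 h difference of 0.17 ± 0.08 did not pass (adjusted p = 0.121). Part of the Trp53 transcript sequence is shared with a processed pseudogene, Trp53-ps, which holds 11.7% of its 24-base words, so its reads may be split. Wrap53, which starts beside it on the other strand, was between 11.0 and 12.9 FPKM in the 6 libraries.

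**Figure D1:**
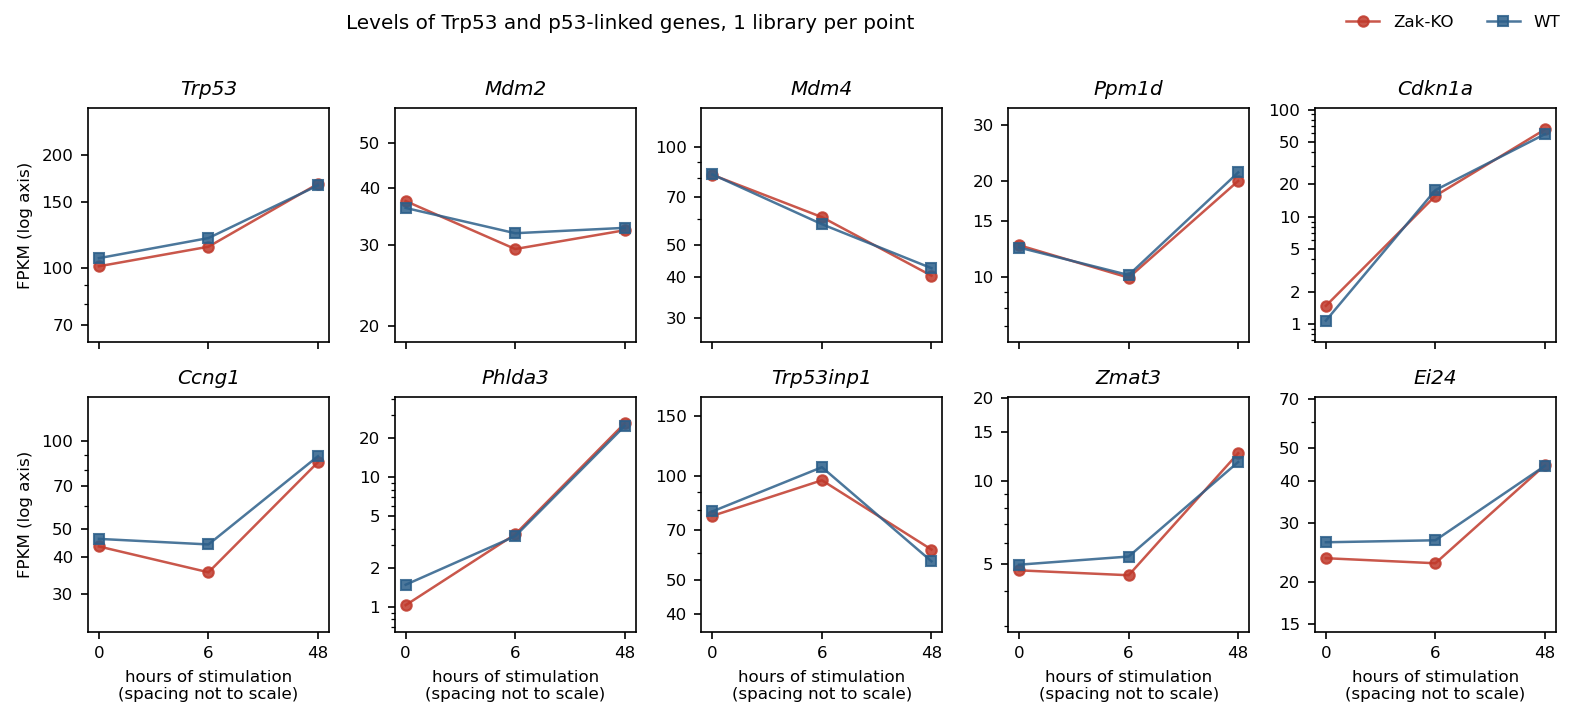
FPKM (log axis, its range set for each gene) of each of the 10 genes at 0, 6 and 48 h in the libraries labelled Zak-KO (red circles) and WT (blue squares), 1 library per point and no error bars. Cdkn1a and Phlda3 climb at both steps, Mdm4 declines at both, Trp53inp1 is highest at 6 h, and at each time the points of both labels lie close together.

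Among the inhibitors of p53, Mdm4 fell while Mdm2 changed little. Mdm4, a relative of Mdm2 without ligase activity of its own, stood at 82.0, 60.9 and 40.3 FPKM at 0, 6 and 48 h in the libraries labelled Zak-KO, and at 82.2, 57.9 and 42.5 FPKM in WT. It was lower at each later time under both labels, by 0.46 ± 0.08 on the log2 scale at 6 h (limma, SE, adjusted p = 0.0069) and by 0.97 ± 0.08 at 48 h (adjusted p = 0.000213). Its 6 h call was lost when either 0 h library was left out (adjusted p = 0.0683 without that labelled Zak-KO and 0.0709 without the WT one). A pseudogene, Mdm4-ps, shares 16.8% of the 24-base words of Mdm4.

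Mdm2 (chromosome 10, 117688875 to 117710758) had the narrowest range of the 10. It stood at 37.4, 29.4 and 32.3 FPKM at 0, 6 and 48 h in the libraries labelled Zak-KO, and at 36.1, 31.8 and 32.7 FPKM in WT. All 4 stimulated libraries were below both resting ones, with a log2 difference of -0.26 ± 0.09 at 6 h (limma, SE, adjusted p = 0.0477) and of -0.17 ± 0.09 at 48 h (adjusted p = 0.118). The 6 h call did not hold without any 1 of the 6 libraries, with adjusted p from 0.0593 to 0.292, so the fall at 6 h is not firm.

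The phosphatase gene Ppm1d, which encodes Wip1 and switches off p53 and Atm, went down and then up. It stood at 12.6, 9.95 and 20.1 FPKM at 0, 6 and 48 h in the libraries labelled Zak-KO, and at 12.4, 10.1 and 21.3 FPKM in WT. The 48 h libraries were above the rest, by 0.69 ± 0.08 on the log2 scale against 0 h (limma, SE, adjusted p = 0.00072) and by 0.97 ± 0.08 against 6 h (adjusted p = 0.000397). The 6 h value was lower by -0.29 ± 0.08 (adjusted p = 0.0293), a call that ended without any 1 of the 0 h and 6 h libraries (adjusted p from 0.0819 to 0.204).

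With Trp53 rising, Mdm2 nearly level and Mdm4 falling, the ratio of these transcripts shifted. FPKM of Trp53 over Mdm2 was 2.70, 3.87 and 5.19 at 0, 6 and 48 h in the libraries labelled Zak-KO, and 2.93, 3.77 and 5.08 in WT. For Trp53 over Mdm4 the ratio was 1.23, 1.87 and 4.16 in the libraries labelled Zak-KO, and 1.29, 2.07 and 3.90 in WT. Both ratios were ordered by time under each label. These are ratios of RNA levels and say nothing of protein.

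Among the targets, Cdkn1a changed most. Cdkn1a encodes p21, the inhibitor of cyclin-dependent kinases that carries out the cell cycle arrest of p53 (chromosome 17, 29090979 to 29100722). It stood at 1.47, 15.7 and 65.2 FPKM at 0, 6 and 48 h in the libraries labelled Zak-KO, and at 1.07, 17.7 and 59.0 FPKM in WT. Every later library was well above every earlier one. In the limma fit Cdkn1a rose by 2.96 ± 0.12 on the log2 scale at 6 h (SE, adjusted p = 6.88e-05) and by 4.801 ± 0.122 at 48 h (adjusted p = 5.77e-06). Among the 10347 filtered genes its size of change at 48 h was above that of 99.7% under each label. It was the lowest or next to lowest of the 10 genes at rest and the third from the top at 48 h.

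Phlda3 followed, later than Cdkn1a. Its product blocks membrane recruitment of Akt and so opposes survival signals. The gene stood at 1.03, 3.62 and 25.9 FPKM at 0, 6 and 48 h in the libraries labelled Zak-KO, and at 1.48, 3.50 and 24.7 FPKM in WT. The 48 h libraries were far above the others. Its log2 rise was 1.02 ± 0.12 at 6 h (limma, SE, adjusted p = 0.00147) and 3.55 ± 0.12 at 48 h (adjusted p = 9.7e-06). Its 6 h fold was 2.28 in the libraries labelled Zak-KO and 1.81 in WT, at levels low enough for the pseudocount to matter.

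Zmat3, Ccng1 and Ei24 had one shape: little change at 6 h and a higher level at 48 h. Zmat3 encodes a zinc-finger protein that binds RNA and acts in p53-dependent tumour suppression. It stood at 4.76, 4.57 and 12.6 FPKM at 0, 6 and 48 h in the libraries labelled Zak-KO, and at 4.99, 5.34 and 11.7 FPKM in WT. Its 48 h level was higher than all earlier ones, by 1.16 ± 0.10 on the log2 scale against 0 h (limma, SE, adjusted p = 0.000199).

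Ccng1 encodes cyclin G1, which brings a phosphatase to Mdm2. Its level was 43.5, 35.5 and 84.9 FPKM at 0, 6 and 48 h in the libraries labelled Zak-KO, and 46.2, 44.2 and 89.0 FPKM in WT. The 48 h rise was 0.94 ± 0.10 on the log2 scale (limma, SE, adjusted p = 0.000423), while the 6 h difference of -0.17 ± 0.10 did not pass (adjusted p = 0.181). Ei24, which encodes a protein of the endoplasmic reticulum with a part in autophagy, was at 23.5, 22.7 and 44.5 FPKM in the libraries labelled Zak-KO, and at 26.2, 26.6 and 44.3 FPKM in WT. It rose by 0.81 ± 0.09 at 48 h (limma, SE, adjusted p = 0.000604), and at 6 h it differed by -0.01 ± 0.09 (adjusted p = 0.907).

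Trp53inp1 took another course. Its product is a stress protein that helps p53 act and takes part in autophagy. It stood at 76.9, 97.5 and 61.4 FPKM at 0, 6 and 48 h in the libraries labelled Zak-KO, and at 79.2, 106 and 56.8 FPKM in WT. Both labels had their highest value at 6 h and their lowest at 48 h. The log2 difference was 0.38 ± 0.09 at 6 h (limma, SE, adjusted p = 0.0186) and -0.40 ± 0.09 at 48 h, both against 0 h (adjusted p = 0.0111). The step down between 6 h and 48 h was 0.78 ± 0.09 in size (adjusted p = 0.0014) and kept its call without any 1 library. The comparisons with 0 h were less firm: adjusted p reached 0.133 at 6 h without the 0 h library labelled Zak-KO, and 0.091 at 48 h without the WT one.

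Counted together, the limma fit called 7 of the 10 genes higher and 2 lower at 48 h against 0 h. It called 38.7% of all filtered genes higher and 35.0% lower, so a call by itself is common at this time. At 6 h against 0 h, 3 of the 10 were called higher and 3 lower, against 25.8% and 30.7% of all genes. These 6 calls became 2 without either 0 h library and 3 without the 6 h WT one. At 48 h against 6 h, 7 were called higher and 2 lower, against 29.0% and 29.3%. The median log2 change of the 10 genes at 48 h against 0 h was 0.81 in the libraries labelled Zak-KO and 0.74 in WT, where all filtered genes had medians of 0.06 and 0.00.

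By size, 3 of the 10 were at least 2-fold higher at 48 h against 0 h under each label (Cdkn1a, Phlda3 and Zmat3), against 18.4% of all genes in the libraries labelled Zak-KO and 17.8% in WT. Mdm4 was at least 2-fold lower in the libraries labelled Zak-KO (2.01-fold, beside 12.0% of all genes) and just short of it in WT (1.91-fold, where no member passed, beside 12.3%). At 6 h, Cdkn1a and Phlda3 passed 2-fold upward in the libraries labelled Zak-KO (9.08% of all genes) and Cdkn1a alone in WT (8.93%), while none was 2-fold lower in either (1.52% and 1.39% of all genes). At 48 h against 6 h, 4 genes passed upward under each label, against 10.8% of all genes in the libraries labelled Zak-KO and 9.32% in WT, and none passed downward (6.55% and 6.14%). Cdkn1a, Phlda3 and Zmat3 were common to both, with Ccng1 in the libraries labelled Zak-KO and Ppm1d in WT, and the value of the other label was 1.99-fold for Ccng1 and 1.92-fold for Ppm1d.

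**Figure D2:**
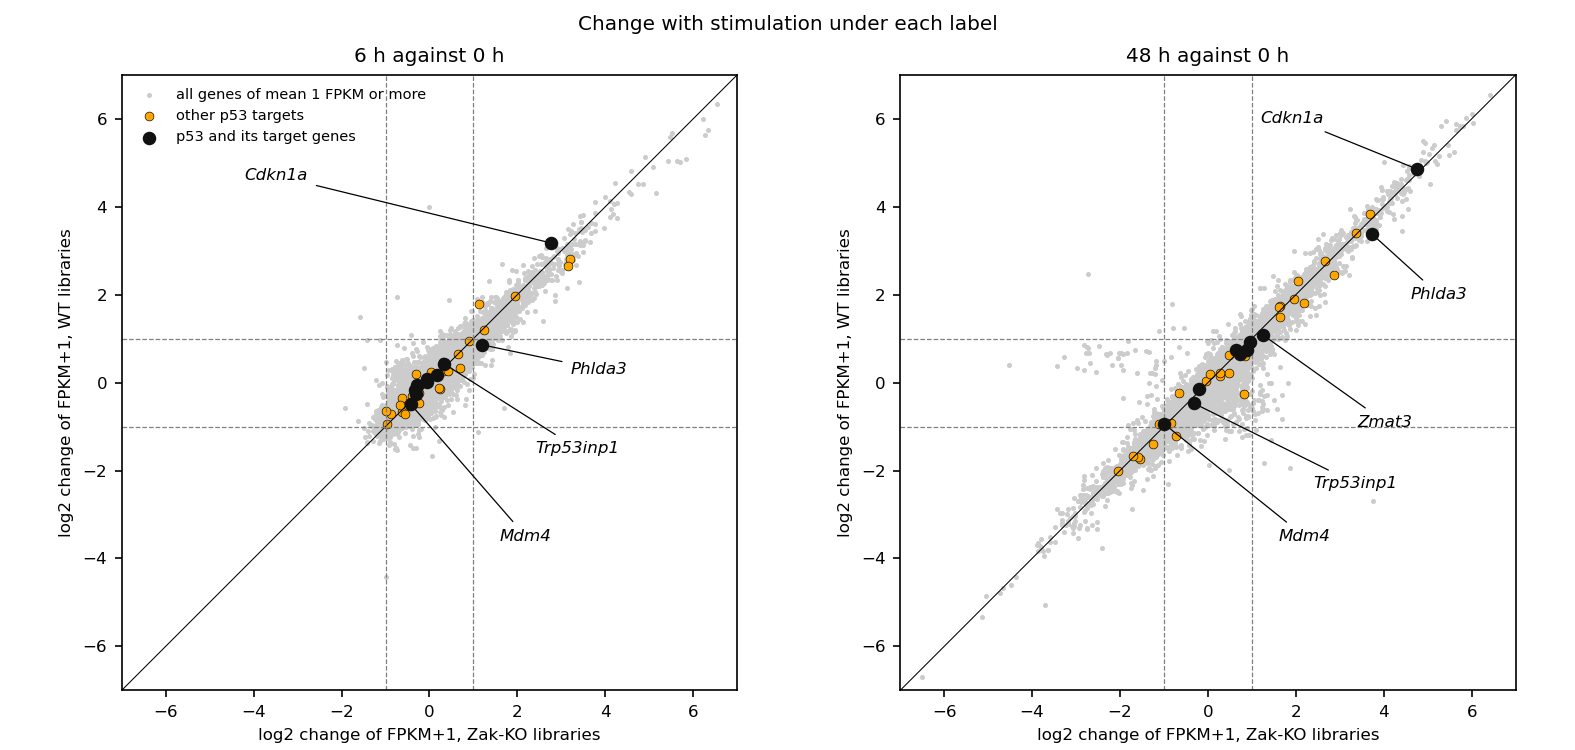
Log2 change of FPKM+1 at 6 h (left) and 48 h (right) against 0 h, libraries labelled Zak-KO on the x axis and WT on the y axis, 1 point per tested gene (grey), with other p53 targets in orange and the 10 genes in black. Dashed lines mark 2-fold and the solid line equal change; at 48 h Cdkn1a (4.75 and 4.86) and Phlda3 (3.73 and 3.38) lie at the upper end, and the 10 genes lie near the line of equal change.

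Between the labels, none of the 10 genes differed 2-fold at any time, where 0.271% of all filtered genes did so at 0 h, 0.242% at 6 h and 2.23% at 48 h. The widest gap of a member was that of Ccng1 at 6 h, 35.5 FPKM in the library labelled Zak-KO against 44.2 in WT, or 1.24-fold lower on the log2(FPKM+1) scale. At 0 h it was Phlda3, 1.03 against 1.48 FPKM, and Cdkn1a, 1.47 against 1.07 FPKM, which went opposite ways at levels close to the pseudocount. At 48 h the widest gap was that of Cdkn1a, 65.2 FPKM in the library labelled Zak-KO against 59.0 in WT (1.10-fold higher). No member passed the 95th percentile of absolute log2 difference over all genes at its time, which was 0.34 at 0 h, 0.43 at 6 h and 0.50 at 48 h.

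The difference of the labels over the 3 times was tested as the label term of the same limma fit, with 3 pairs. It called 0 of the 10 genes, and 0 of them had an unadjusted p under 0.05, where 515 of all genes (4.98%) did. Eif3j2, higher by 3.32 ± 0.18 on the log2 scale under the Zak-KO label (SE, adjusted p = 0.0457), has a near-identical copy and an uncertain value. Its shared sequence was not counted. Over all genes the label term called only this 1 (0.00966%). That count was 55 without either 48 h library and 0 without either 0 h library, with 0 members in each. Leaving out either library of a time gives the same label term, so each pair of equal counts is 1 result. In the fit of all libraries, the lowest adjusted p of a member was 0.844, for Ccng1 and Ei24. For Ccng1 the mean log2 difference was -0.15, with an interval of 95% from -0.35 to 0.05. Ccng1 was lower in the library labelled Zak-KO at all 3 times, as was Ei24 at 0 and 6 h only (-0.12, interval from -0.31 to 0.07). The interval for Trp53 ran from -0.21 to 0.12, that for Mdm2 from -0.20 to 0.15 and that for Cdkn1a from -0.17 to 0.33. These bounds do not show that the labels act alike.

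**Figure D3:**
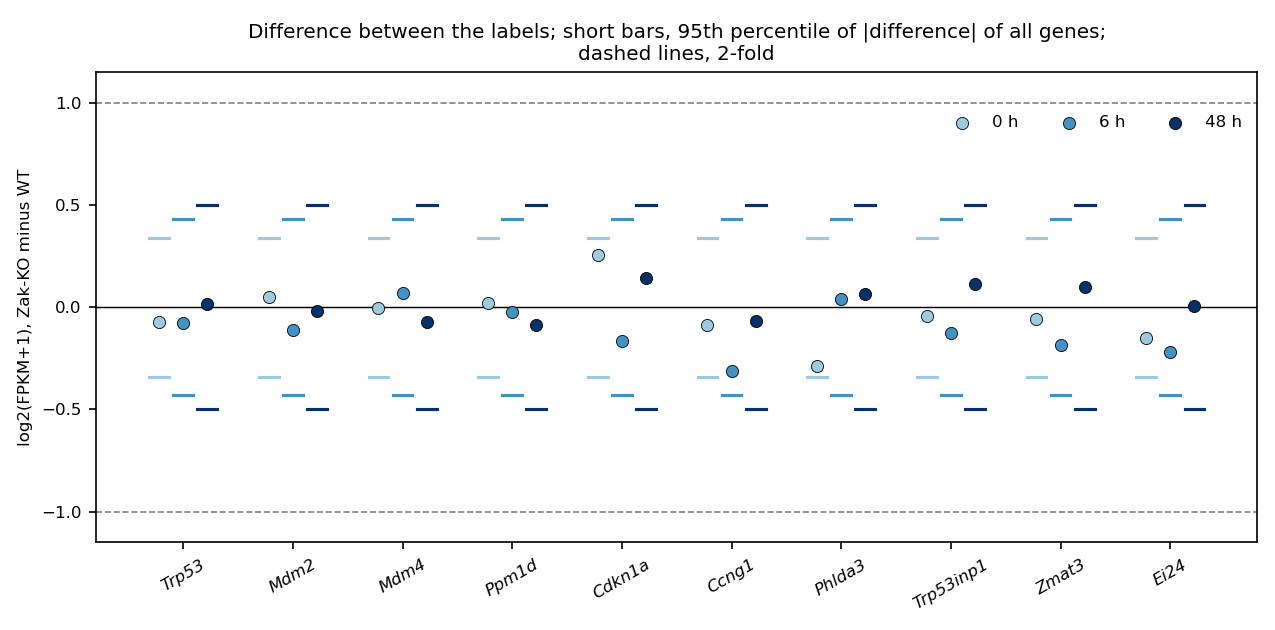
Difference in log2(FPKM+1), Zak-KO minus WT, for each of the 10 genes at 0, 6 and 48 h (light to dark blue), 1 library per label and time. Short bars mark the 95th percentile of the absolute difference over all filtered genes at that time (0.34, 0.43 and 0.50) and dashed lines 2-fold; every point lies inside its bars.

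The direction of so small a difference depended on how the libraries were scaled. At 48 h, 6 of the 10 genes were above 0 in the values as deposited, 0 of 10 after scaling by median ratio and 10 of 10 after scaling by the upper quartile. The median of all genes moved by -0.16 and 0.11 on the log2 scale in the same steps, so the genes moved with the table. At 6 h, 8 of 10 were lower in the library labelled Zak-KO as deposited, and 6 to 9 of 10 were under the 3 scalings. The label also gave no large gap in the responses. Of the 10 genes, Phlda3 had the widest difference between the 48 h responses (3.73 in the libraries labelled Zak-KO and 3.38 in WT) and Cdkn1a the widest at 6 h (2.75 and 3.18), each below the 95th percentile of all genes (0.56 and 0.52). The 6 h and 48 h responses share the 0 h libraries.

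Other p53 targets were read from a list of 34 genes, of which 33 were in the table and 28 passed the filter. They did not move as one group. In the limma fit 15 of the 28 rose and 9 fell at 48 h against 0 h (beside 38.7% and 35.0% of all genes), and their median log2 change was 0.47 in the libraries labelled Zak-KO and 0.21 in WT. The largest rises were those of Gtse1, which restrains p53 in G2 (27.9 and 1.25 FPKM at 48 and 0 h in the libraries labelled Zak-KO, 30.3 and 1.19 in WT), and the spindle gene Ckap2 (15.03 and 0.55 in the libraries labelled Zak-KO, 16.5 and 0.67 in WT). Both are also genes of dividing cells. Rps27l, a relative of a ribosomal protein gene, and Pidd1, which encodes a scaffold for caspase activation, came next with log2 changes of 2.71 ± 0.17 (limma, SE, adjusted p = 6.61e-05) and 2.66 ± 0.13 (adjusted p = 2.94e-05). Rps27l shares 18.2% of its 24-base words with other genes, so its value is uncertain.

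The largest falls were those of Rrm2b, Ddb2, Sfn and Sesn1. Rrm2b, the p53-dependent subunit of ribonucleotide reductase, was at 2.26 and 12.5 FPKM at 48 and 0 h in the libraries labelled Zak-KO and at 2.32 and 12.4 in WT, a log2 change of -2.03 ± 0.09 (limma, SE, adjusted p = 2.13e-05). Ddb2, a damage sensor of nucleotide excision repair known as a p53 target mainly in human cells, fell by 1.69 ± 0.11 (adjusted p = 8.63e-05). Sfn, which encodes 14-3-3 sigma, and Sesn1, a sestrin that restrains mTORC1, fell by 1.64 ± 0.09 and 1.64 ± 0.08 (adjusted p = 5.27e-05 and 3.78e-05). The other sestrin on the list, Sesn2, rose by 1.996 ± 0.136 (adjusted p = 9.06e-05), at 12.9 and 2.06 FPKM at 48 and 0 h in the libraries labelled Zak-KO and 11.2 and 2.48 in WT.

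At 6 h, 5 of these 28 targets were at least 2-fold higher under each label, beside 9.08% of all genes in the libraries labelled Zak-KO and 8.93% in WT. They are named here after their values were seen. Plk3, a stress kinase gene, had 33.1 and 2.73 FPKM at 6 and 0 h in the libraries labelled Zak-KO and 30.4 and 3.45 in WT. Sesn2 had 26.3 and 2.06 in the libraries labelled Zak-KO and 20.9 and 2.48 in WT, and Aen, an apoptosis-enhancing nuclease gene, 49.9 and 12.1 against 49.6 and 11.9. Plk2 and Rps27l were the others. Bbc3, the BH3-only gene also called Puma, had log2 changes of 0.05 ± 0.11 at 6 h (adjusted p = 0.763) and 0.34 ± 0.11 at 48 h (adjusted p = 0.0385).

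**Figure D4:**
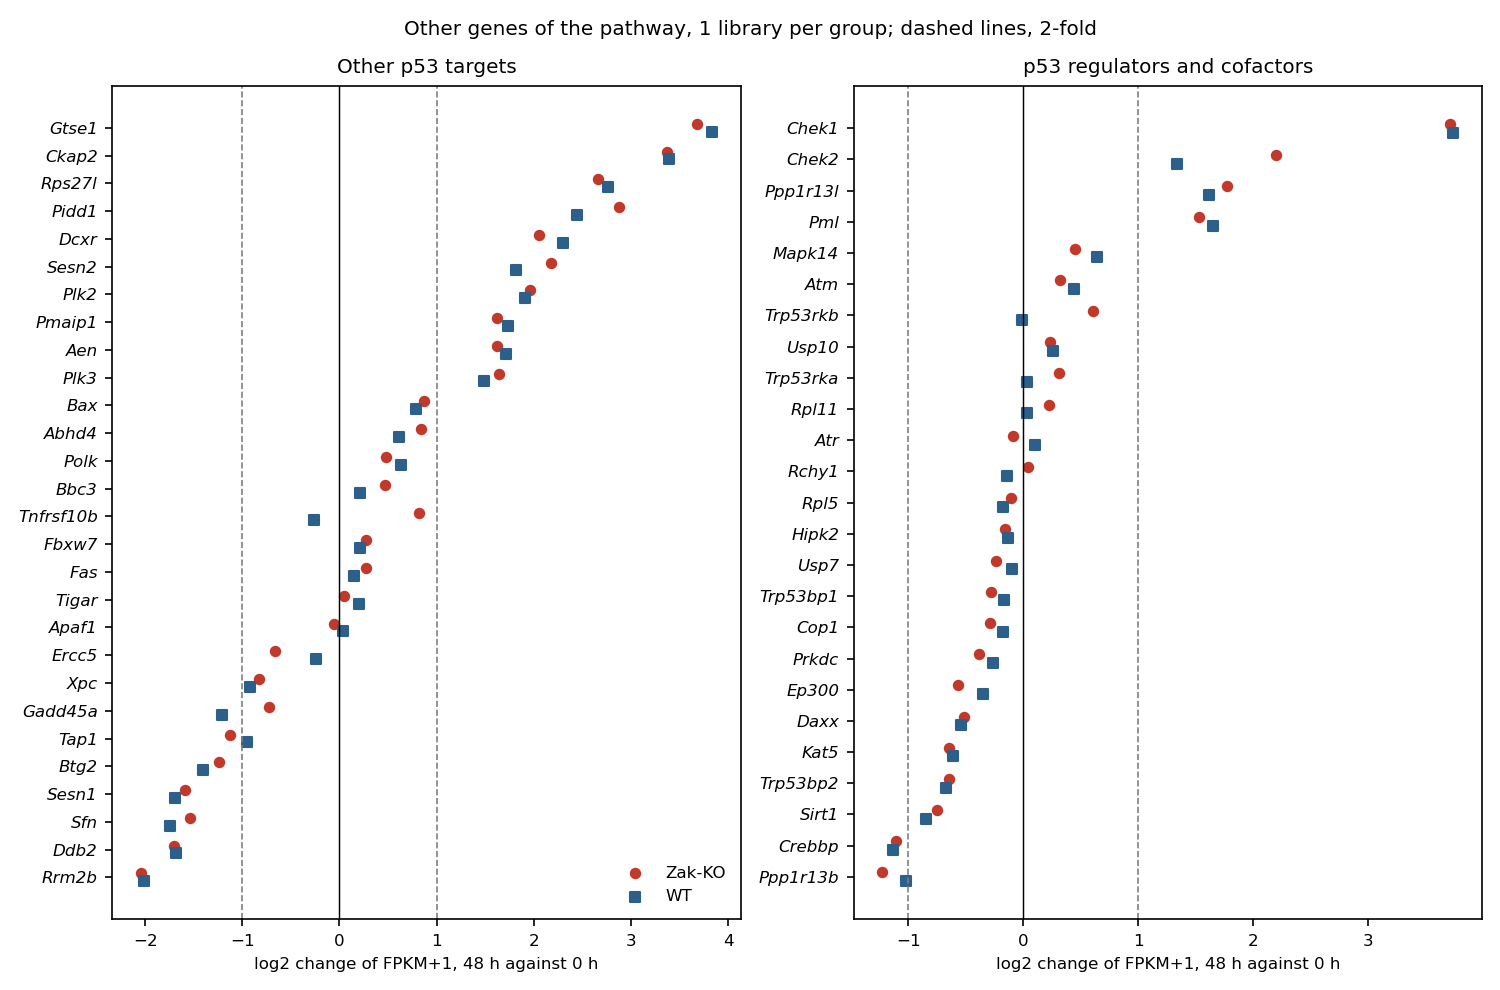
Log2 change of FPKM+1 at 48 h against 0 h for 28 other p53 targets (left) and 25 regulators and cofactors (right) that passed the filter, libraries labelled Zak-KO as red circles and WT as blue squares, 1 library per group. Dashed lines mark 2-fold; targets spread from Gtse1 (3.68 and 3.84) down to Rrm2b (-2.04 and -2.01), and Tnfrsf10b and Chek2 are the genes whose 2 points lie farthest apart.

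Exact matches to the p53 consensus were present in the promoters of 9 of 27 other targets with a promoter in the table (33.3%). They were Aen, Bax, Gtse1, Rps27l, Ckap2, Abhd4 and Polk, which were called higher at 48 h against 0 h in the limma fit, and Sesn1 and Gadd45a, which were called lower. Beside these stand 15 higher and 9 lower of the 28 targets tested, and 38.7% and 35.0% of all genes. Whether a match goes with the direction of change was not tested. Of 25 p53 regulators, 2 had a match (8.00%), beside 7.90% of filtered genes.

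Of 26 regulators and cofactors of p53, 25 passed the filter, and 6 rose and 8 fell at 48 h against 0 h in the limma fit, beside 38.7% and 35.0% of all genes. Chek1 and Chek2, the checkpoint kinases that act on p53 after DNA damage, rose by 3.73 ± 0.09 and 1.77 ± 0.26 on the log2 scale (SE, adjusted p = 5.67e-06 and 0.00174). Chek2 stood apart by label, with 36.4 and 7.13 FPKM at 48 and 0 h in the libraries labelled Zak-KO and 13.4 and 4.69 in WT. Pml, the organiser of nuclear bodies, rose by 1.59 ± 0.09 (adjusted p = 4.82e-05), and Mapk14, which encodes p38 alpha, the kinase below Zak, by 0.55 ± 0.09 (adjusted p = 0.00252). Mapk14 had 49.6 and 36.0 FPKM at 48 and 0 h in the libraries labelled Zak-KO and 53.3 and 33.7 in WT. Lower genes were Ppp1r13b, a cofactor that steers p53 to apoptosis genes (-1.13 ± 0.11, adjusted p = 0.000333), the acetyltransferase Crebbp (-1.12 ± 0.13, adjusted p = 0.000571), the deacetylase Sirt1 (-0.80 ± 0.08, adjusted p = 0.000406) and Trp53bp2 (-0.66 ± 0.10, adjusted p = 0.00189). Between the labels at 48 h, among genes averaging at least 5 FPKM, the widest log2 differences of regulators were 1.38 for Chek2, 0.19 for Rchy1 and -0.18 for Usp7, and those of targets 1.499 for Tnfrsf10b, 0.20 for Bbc3 and 0.18 for Sesn2. Below that level Trp53rkb (0.62), Gadd45a (0.45) and Dcxr (-0.28), named after their values were seen, differed by more than all of these but Tnfrsf10b and Chek2. The other members of the p53 family, Trp63 and Trp73, were between 0 and 0.03 FPKM in all libraries, and Cdkn2a, which encodes the Mdm2 inhibitor Arf, was at most 0.08.

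Cdkn1a was high at the same time as the cell cycle genes that p21 holds down through the DREAM complex. All 20 genes of that list rose at 48 h against 0 h in the limma fit, where 38.7% of all genes did, with a median log2 change of 4.43 in the libraries labelled Zak-KO and 4.28 in WT. The topoisomerase gene Top2a stood at 135 and 1.13 FPKM at 48 and 0 h in the libraries labelled Zak-KO and at 156 and 1.28 in WT. The cyclin gene Ccna2 had 75.8 and 0.53 against 82.7 and 0.43 in WT. At 6 h, 1 of the 20 rose and 5 fell, beside 25.8% and 30.7% of all genes, and Cdkn1a was between its 0 h and 48 h levels. Several of the 20 were near 0 FPKM at 0 h, where a fall can hardly show. Aurkb, Bub1 and Cdk1 were at most 0.35 FPKM there under either label. A part of Cdkn1a in these values was not tested. Between the labels at 48 h, 19 of these 20 were below 0 (median -0.12), beside 5579 of all 10347 filtered genes (median -0.01). With a common sum it was 19 (median -0.14, and -0.03 for all genes), and with median ratio scaling 20 (median -0.29, and -0.17 for all genes). With upper quartile scaling it was 10 of 20, where the median of the list was -0.00 and that of all genes 0.10. The count therefore depended on the scaling, while the median of the list lay below that of all genes under each. This rests on 1 library per label. Mki67 had the widest gap, 75.2 FPKM in the library labelled Zak-KO against 92.6 in WT (-0.30), followed by Ccnb1 (-0.29) and Cdk1 (-0.22). These libraries hold RNA of mixed cells, so the values do not show whether the same cells carried both. Aurkb and Mki67, the others named by rank, rose by 5.68 ± 0.08 and 5.68 ± 0.14 on the log2 scale (limma, SE, adjusted p = 4.53e-06 and 5.56e-06).

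Some genes outside the 10 had nearly the same profile over the 6 libraries, ranked by the root mean square distance between centred log2 profiles among 8004 genes. Nearest to Trp53 were Ndufa10, a subunit gene of respiratory complex I (distance 0.02), the elongation factor gene Eef1b2 (0.03) and the adaptor gene Myd88 (0.03). Nearest to Mdm2 were Qk (0.02), Ube2j1 (0.02) and Grb2 (0.03). Nearest to Cdkn1a were the cell cycle gene Cdca7 (0.12), Marcksl1 (0.18) and Npas4 (0.21), and to Ccng1 S100a11 (0.06), Mtch1 (0.07) and Samd10 (0.07). Within the 10, the nearest pair was Ccng1 with Zmat3 (0.12), followed by Ccng1 with Ei24 (0.12). The points are 6 libraries that share their times, so likeness here mostly records the shape over time.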

How the data were processed

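The deposited table holds 1 FPKM value per gene and library, computed by the authors from reads. The submitters' processing notes name Bowtie, RSEM and mm10; no source used here gives their versions, settings or use of strand. Of 18446 NCBI gene identifiers, 18326 had a RefSeq symbol and 120 had none.

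Differences were taken on log2(FPKM+1) without rescaling, which understates the change of low genes, over the 10347 genes that averaged at least 1 FPKM. With 1 library per group there is no replicate check within a group, and genes were counted at 2-fold. Time and label were also tested in limma 3.58.1 (R 4.3.3) on all 10347 genes with both as additive terms and 2 residual degrees of freedom. Adjusted p-values are Benjamini-Hochberg over all these genes for each contrast, with a threshold of 0.05. In simulated data the fit recovered 94.0% of 200 genes shifted by 1.5 (log2) between labels among 10347, with 9 false calls. It recovered 88.0% of 200 shifted at 48 h against 0 h, with 10 false calls. The simulated noise was independent and normal, with SDs from this same additive fit. No other time effect and no difference in time course between labels was put in. The widest mean label difference of a member was -0.15 (Ccng1), so these shares do not speak for differences of that size. Promoter sequences came from RefSeq. Shared sequence was counted as 24-base words in GENCODE M21 transcripts, a step added after the data were seen.

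The members, lists and alternatives were chosen with earlier results of these data known. All 10 members are named. From the lists, genes were named by the largest mean change at 48 h against 0 h (up to 4 each way) and the largest difference between labels at 48 h (up to 3), among those averaging at least 5 FPKM; other list genes are said to be named after their values were seen. Genes of like profile were the 3 nearest to each of 4 members. Alternatives changed the filter (absent, or 5 FPKM on average), the pseudocount (0.1 or 5), the scaling, the fold (1.5 or 4), the variance prior of limma and the libraries entered. Python 3.11.15, numpy 2.4.6, pandas 2.3.3 and matplotlib 3.10.9 were used.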

Additional observations from a re-analysis of the deposited data

Results flagged for a closer look

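Tnfrsf10b, which encodes the death receptor for TRAIL, was the p53 target on the lists that was at least 2-fold apart between the labels at 48 h, and its difference at 6 h had the other sign. It stood at 26.1, 21.03 and 46.8 FPKM at 0, 6 and 48 h in the libraries labelled Zak-KO, and at 19.4, 22.3 and 15.9 FPKM in WT. The log2 difference, Zak-KO minus WT, was 0.41 at 0 h, -0.08 at 6 h and 1.499 at 48 h. At 6 h it was smaller than the median absolute difference of all genes (0.14), so its sign there is not firm. From 6 h to 48 h the gene changed by 1.12 in the libraries labelled Zak-KO and by -0.46 in WT. The difference between the effects was not tested, as there is 1 library per group. Of its 24-base words, 15.4% occur in transcripts of other genes, and 144 of them in 50 genes or more. The part of shared sequence in this result was not tested.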

How the results depend on the processing

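Of 640 log2 differences of single members under another setting, 620 stayed on the same side of 2-fold. Another 12 dropped below it, 8 passed it and 0 called ones changed sign. A filter on genes cannot change a member's own difference, so agreement under the filters was fixed in advance. The differences between the labels were at most 1.24-fold, so these could hardly cross 2-fold. Of 560 adjusted p-values, 535 stayed on the same side of 0.05, 24 lost a call and 1 gained one, Mdm2 at 48 h against 0 h with a common sum (0.0238). At 48 h against 0 h, the calls of the members other than Mdm2 and Trp53inp1 held under all alternatives of the fit.

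Counts of members past 2-fold that moved by over 1.5 times were these. With a pseudocount of 0.1, 2 members were higher at 6 h in WT; with 5, 1 was higher at 6 h in the libraries labelled Zak-KO, 0 were lower at 48 h against 0 h there and 2 were higher at 48 h against 6 h in WT. With a common sum or upper quartile scaling, 1 was lower at 48 h against 0 h in WT and 2 were higher at 48 h against 6 h there. At 1.5-fold, 7 were higher at 48 h against 0 h under each label, 2 at 6 h in WT, 1 was lower in WT at 48 h against 0 h and 1 under each label against 6 h. At 4-fold, 1 was higher at 6 h in the libraries labelled Zak-KO and 1 under each label at 48 h against 6 h, and 0 were lower. Without the 6 members that carry a 24-base word found in 50 or more genes, a choice made after the data were seen, 1 was higher and 0 lower at 48 h against 0 h under each label, 2 were higher against 6 h, and 1 and 0 were higher at 6 h in the libraries labelled Zak-KO and in WT; fewer genes are counted by construction.

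The number of genes called between the labels was 1, and 0 with a pseudocount of 0.1 or no filter, 2 with a pseudocount of 5, 5 with a filter at 5 FPKM, 10 with median ratio scaling and 3 with limma's trended prior. Leaving out 1 library gave 0 to 55 genes between the labels, with 55 without either 48 h library, and 0 members in each case. For 6 h against 0 h it gave 2909 to 6241 genes and 2 to 5 members, where all libraries gave 5846 and 6; the lowest were without a 0 h library. In these fits the lone library of a time is assumed to vary like the others, and fewer residual degrees of freedom remain. The label term is the same whichever library of a time is left out. The cause of these shifts was not tested. The fit pairs the labels by time, and no replicate numbers are given on which to form another block. The read depth is unknown, so no counting error can be given, and Cdkn1a and Phlda3 at 0 h, near 1 FPKM, are the values it limits most.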

Other observations

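Chek2 was the regulator with the widest gap between the labels at 48 h, 36.4 FPKM in the library labelled Zak-KO against 13.4 in WT, a log2 difference of 1.38. At 0 h it stood at 7.13 against 4.69 FPKM and at 6 h at 4.50 against 3.55. It carries 140 of the 24-base words found in 50 or more genes. Over all filtered genes with a transcript, 127 of 4502 that carry such a word (2.82%) were at least 2-fold higher in the 48 h library labelled Zak-KO, against 51 of 5709 that carry none (0.893%). At least 2-fold lower there were 5 (0.111%) with such a word and 37 (0.648%) without. The part of shared sequence in the gap of Chek2 was not tested. Of the 10 p53 genes, 6 carry such a word (Trp53, Mdm2, Mdm4, Cdkn1a, Zmat3 and Ei24), and their 48 h differences lay between -0.07 and 0.14. After centring on GC content and transcript length, the differences of the 10 genes lay between -0.08 and 0.16.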
